A study of Mus musculus with 4 samples.

Results

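Chemokines and their receptors were examined in dissociated mouse lung as the genes whose symbols begin with Ccl, Cxcl, Cx3cl, Xcl, Ccr, Cxcr, Cx3cr, Xcr or Ackr and a number, leaving out symbols that begin with Ccl21. The rule used names, not measured values, and found 55 of the 20752 genes in the lung tables: 33 ligands and 22 receptors. Of these, 54 were in the table of single cells and 55 in the table of cell clusters. Ccl24 was listed in the cluster table alone.

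Chemokines are small secreted proteins that guide the movement of leukocytes along concentration gradients. They act through receptors coupled to G proteins, while the atypical receptors of the Ackr group bind ligands and remove or present them without G protein signalling. In the lung they are known for recruiting neutrophils, monocytes and lymphocytes to the airspaces and for holding lymphocytes and dendritic cells in tissue niches.

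Expression was measured by droplet RNA sequencing of whole lung from C57BL/6J mice, an inbred strain, with no treatment named; age and sex are not stated in the labels. One suspension type held single cells (singlets) and the other held clusters of attached cells (multiplets), in which 1 barcode can carry RNA of several cells. Each lung group had 1 library, the labels name no separate animals, and no spread between replicates could be measured, so no test was made. Cells of 1 class share a library and are not replicates. The study set out to identify the cell types within such clusters, and the singlets carry the authors' cell classes.

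The singlet library held 6084 barcodes and 56639425 unique molecular identifiers (UMIs, counts of captured transcripts) and the multiplet library 4729 barcodes and 66277622 UMIs. Both libraries listed 2 barcodes in common. Median depth was 7896 UMIs in singlets and 11934 in multiplets, and no multiplet had fewer than 5006. Levels below are UMIs summed over barcodes and scaled to a total of 1000000 for the same barcodes (CPM). Ranges in parentheses are exact 95% intervals that cover counting error only. Classes carry the authors' names, and 11 of 13 had at least 50 singlets. Lists of type II, type I, club, ciliated, endothelial, mesothelial, alveolar macrophage, T, B and NK cell markers were each highest in the class of that name. An interstitial macrophage list, which has no class of that name, was higher in Fibroblast-1 (3865 CPM) and Fibroblast-2 (3429) than in Macrophage (2909). The class named Macrophage (283 cells) held neutrophil markers at 3309 CPM, monocyte markers at 2226 and dendritic markers at 477, so several myeloid cell types share that name.

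The neutrophil-attracting ligands were led by different classes, although the 5 genes lie near each other on chromosome 5. Cxcl5 spans chr5:90759360-90761624 and has no entry in the promoter table. Cxcl3 spans chr5:90786103-90789600, Cxcl15 chr5:90794534-90803067, Cxcl1 chr5:90891241-90893115 and Cxcl2 chr5:90903871-90905938 (GRCm38), all on the plus strand. The bases from 150 to 31 before the start of transcription are shown for these 4 genes, with capitals marking matches on either strand to a 10-base motif: GGG, any 2 bases, TT, any base, then CC. These letters are typical of sites bound by NF-kappaB, a transcription factor of inflammation. Sequences and the starts they are counted from are from RefSeq (GRCm38.p6), plus strand. The gene spans above are from GENCODE M21, another annotation, and its starts can differ from those in RefSeq.
Cxcl3 (chr5:90785951-90786070): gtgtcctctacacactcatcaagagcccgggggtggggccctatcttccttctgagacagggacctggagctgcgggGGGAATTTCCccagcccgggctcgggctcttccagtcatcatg
Cxcl15 (chr5:90794384-90794503): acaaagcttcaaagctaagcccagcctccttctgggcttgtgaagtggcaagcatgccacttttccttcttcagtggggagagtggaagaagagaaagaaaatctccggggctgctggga
Cxcl1 (chr5:90891095-90891214): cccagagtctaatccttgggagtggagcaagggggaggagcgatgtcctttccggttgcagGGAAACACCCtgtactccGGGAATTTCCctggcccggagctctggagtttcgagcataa
Cxcl2 (chr5:90903749-90903868): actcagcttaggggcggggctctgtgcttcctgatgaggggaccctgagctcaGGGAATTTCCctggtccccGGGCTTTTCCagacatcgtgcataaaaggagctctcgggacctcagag
Cxcl1 and Cxcl2 hold 2 matches each and Cxcl3 holds 1, at 73 bases before the start. Cxcl15 holds no match in the 250 bases searched. The motif occurs in 10 of the 42 chemokine and receptor genes with a promoter in the RefSeq table (23.8%), and in 4.71% of 27025 genes there. The 10 are Ccl9, Ccl19, Ccl20, Ccr3, Ccr6, Cxcl1, Cxcl2, Cxcl3, Cxcl9 and Cxcl10. A match is a description of letters, and binding was not measured.

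Cxcl15, also called lungkine and known as a product of lung epithelium, stood at 8072 CPM (8028 to 8116) in Pneumocyte Type-II cells, the surfactant-making cells of the alveolus. The next class was Clara cell, the secretory cell of the airway, at 816 CPM. Every other class with at least 50 cells held Cxcl15 at 47.0 to 672 CPM. At 2000 UMIs per cell it had a UMI in 99.6% of the 1009 Pneumocyte Type-II cells (99.0 to 99.9; 99.9% without thinning), and in 9.48% of Fibroblast-1 cells (27.97% without thinning), which are not known to make it. Median depths of these classes were 16009 and 6562 UMIs.

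The low Cxcl15 signal in most classes moved with that of surfactant protein C (Sftpc), an RNA of Pneumocyte Type-II cells. There were 3.65 Cxcl15 UMIs per 100 Sftpc UMIs in Pneumocyte Type-II cells (3.63 to 3.67), and 3.03 to 4.56 in 8 other classes, from Macrophage to Fibroblast-2. The ratio was 5.39 in Endothelial cells (4.93 to 5.90) and 11.5 in Clara cells (10.7 to 12.3). In Clara cells 74.6% of the Cxcl15 UMIs lay in 10 of the 61 cells, so its level there rests on few cells.

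Cxcl2, an early signal for neutrophils, was led by Alveolar Macrophage cells at 2286 CPM (2236 to 2338), followed by Macrophage cells at 888 CPM. It was at 23.8 CPM or less in 8 of the other 9 classes and at 55.5 in T-cell. Its neighbour Cxcl1, a ligand of the same receptor, was led by Fibroblast-2 at 120.5 CPM (111.5 to 130.1), with Alveolar Macrophage at 72.7 and Macrophage at 14.9. Cxcl3 reached 21.4 CPM in Alveolar Macrophage cells, where it had a UMI in 11 of 227 cells, and 1 cell held 47 of the 73 UMIs. Cxcl5, a neutrophil-attracting ligand of epithelium, reached 24.0 CPM in Clara cells, from 28 UMIs in 9 of 61 cells. Ccl20, which attracts cells with Ccr6, was at 73.6 CPM in the same class, from 86 UMIs in 3 cells.

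Ligands of the cytotoxic lymphocytes were led by the class NK-cell. Ccl5, which attracts T cells and monocytes, had a UMI in 172 of 172 NK-cell barcodes and stood at 17448 CPM (17140 to 17761). T-cell was next at 1247 CPM, with 51 of 334 cells positive and 68.2% of the UMIs in 10 cells. At 2000 UMIs per cell Ccl5 had a UMI in 100% of NK-cell barcodes (97.9 to 100) and in 1.75% of Fibroblast-1 cells (5.30% without thinning), at median depths of 3459 and 6562 UMIs. Ccl4 stood at 3524 CPM in NK-cell and 783 in Macrophage, and Ccl3 at 1879 and 465. Xcl1, the ligand of the dendritic cell receptor Xcr1, stood at 479 CPM in NK-cell (429 to 533) and at 27.6 CPM in Endothelial, the next class.

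Myeloid ligands were split between the 2 macrophage classes. Ccl6, which binds Ccr1, was at 3273 CPM in Alveolar Macrophage and 775 in Macrophage, while Ccl9, from the neighbouring gene and for the same receptor, was at 24.3 and 255 CPM. The neighbours thus had opposite leading classes. Ccl17 and Ccl22, ligands of Ccr4 known from dendritic cells, were at 207 and 148 CPM in Macrophage and below 6 CPM in every other class with at least 50 cells. Few cells carried them: 23 of 283 Macrophage cells had a Ccl17 UMI and 16 a Ccl22 UMI, and 10 had both. Of the Ccl17 UMIs in that class, 94.7% lay in 10 cells. Ccl2, a monocyte attractant, was at 86.9 CPM in Macrophage and 61.3 in Fibroblast-2.

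Stromal ligands differed between the 2 fibroblast classes. Cxcl14, a ligand of tissue-resident stroma, was at 863 CPM in Fibroblast-1 (851 to 876) and 294 in Fibroblast-2. The eosinophil attractant Ccl11 was at 234 CPM in Fibroblast-2 (221 to 247), 3.43 in Fibroblast-1 and 5.26 in Endothelial, the next class. Cxcl12, which retains cells with Cxcr4, was at 291 CPM in Endothelial (254 to 332), 267 in Fibroblast-2 (254 to 281) and 123 in Fibroblast-1. The first 2 of these levels did not differ beyond counting error. Ccl19, which guides cells with Ccr7, was at 32.1 CPM in Fibroblast-2 and 15.0 in Fibroblast-1. Ccl8 and Cxcl13 were led by Fibroblast-2 as well, at 11.7 and 20.4 CPM, but the 111 Cxcl13 UMIs lay in 12 of 528 cells.

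Within Fibroblast-2, the share of cells with Pi16, a marker of adventitial fibroblasts, differed between cells with Ackr3 and cells with Cxcl14. Pi16 had a UMI in 183 of 222 cells with Ackr3 (82.4%) and 136 of 306 without it (44.4%). For Cxcl14 the shares ran the other way, at 84 of 191 cells with it (44.0%) and 235 of 337 without it (69.7%). Pi16 was in 136 of 186 cells with Ccl11 (73.1%, against 53.5% of the rest), and for Cxcl12 the shares were near even, at 224 of 370 (60.5%) and 60.1%. Ccl8 was found with Ccl11, in 26 of 32 cells. Cxcl17, a ligand of mucosal surfaces, was at 482 CPM in Ciliated cell (452 to 513) and 126 in Clara cell. Cx3cl1, the membrane-bound ligand of Cx3cr1, was at 30.3 CPM in Endothelial (19.2 to 45.4), 14.4 in Alveolar Macrophage and 11.1 in Clara cell. For Ccl25 and Ccl27a no class stood at least 3 times above the next: Ccl25 ranged from 2.57 CPM in Clara cell to 34.3 in NK-cell and Ccl27a from 2.93 in Alveolar Macrophage to 18.3 in Fibroblast-1.

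Several receptors were led by lymphocyte classes. Cxcr5, which directs B cells to follicles, was at 126 CPM in B-cell (102 to 155) and 2.11 in T-cell, the next class. Cxcr6, a receptor of tissue-resident T cells and the partner of Cxcl16, was at 325 CPM in T-cell (300.2 to 352) and 4.19 in Macrophage. Ccr7, which guides cells to lymph nodes, was at 953 CPM in B-cell (883 to 1027), 381 in T-cell and 74.7 in Macrophage. Cxcr4, the Cxcl12 receptor, was spread over B-cell (441 CPM), Macrophage (274), NK-cell (134) and T-cell (128). Cxcr3, the receptor of Cxcl9 and Cxcl10, was at 27.2 CPM in NK-cell and 22.2 in T-cell.

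The class Macrophage led Ccr2, Cx3cr1, Cxcr2 and Xcr1, and Alveolar Macrophage led Ccr1. Ccr2, the Ccl2 receptor of monocytes, was at 561 CPM in Macrophage (533 to 590), 361 in NK-cell and 229 in T-cell. Cx3cr1 was at 178 CPM in Macrophage and 83.0 in NK-cell, Cxcr2 at 44.97 in Macrophage (37.2 to 53.9) and 6.74 in Alveolar Macrophage, and Xcr1 at 29.3 and 3.22 in the same classes. Ccr1 was at 111 CPM in Alveolar Macrophage (100 to 123) and 89.9 in Macrophage. The atypical receptor Ackr3, which scavenges Cxcl12, was at 215 CPM in Fibroblast-2 and 155 in Endothelial. Ackr2, which scavenges inflammatory CC ligands, was at 28.9 CPM in Endothelial (18.1 to 43.8) and 4.40 in Fibroblast-2.

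**Figure D1:**
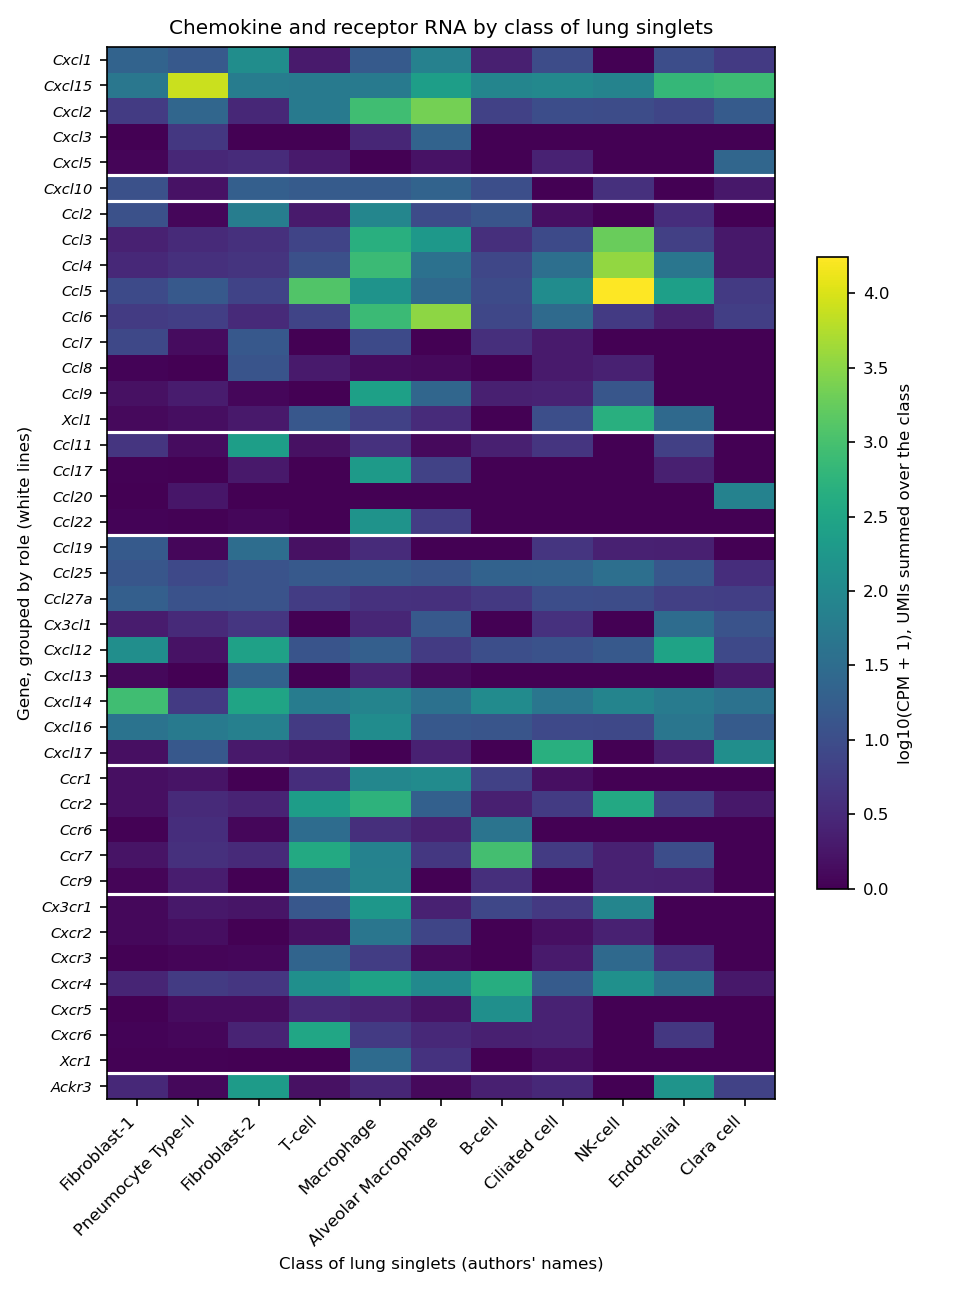
Level of ligands and receptors with at least 50 singlet UMIs in the 11 classes of lung singlets, as log10 of CPM + 1, with white lines between groups of roles. Ccl5 is brightest in NK-cell (17448 CPM) and Cxcl15 in Pneumocyte Type-II (8072 CPM), while Ccl25 runs from 2.57 to 34.3 CPM and Ccl27a from 2.93 to 18.3 CPM with no class at least 3 times above the next.

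For 42 genes with at least 50 singlet UMIs, 21 had 1 class at least 3 times above the next. Over all genes with as many UMIs that share was 15.8%. Among the 21, NK-cell led Ccl3, Ccl4, Ccl5 and Xcl1, Macrophage 5 genes (Ccl9, Ccl17, Ccl22, Cxcr2, Xcr1), Fibroblast-2 3 (Ccl8, Ccl11, Cxcl13), and Alveolar Macrophage (Ccl6, Cxcl3) and Clara cell (Ccl20, Cxcl5) 2 each. B-cell led Cxcr5, T-cell Cxcr6, Ciliated cell Cxcl17 and Pneumocyte Type-II Cxcl15. Of the 12 genes under 50 singlet UMIs, Ackr1, Ccl1, Ccl28, Ccr3, Ccr8 and Ccr10 were also under 50 in multiplets, and their singlet levels ran from 0.141 to 0.424 CPM.

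Receptors split the Macrophage class into cells with different second genes. Cxcr2, a neutrophil receptor, had a UMI in 38 of the 283 cells, and 33 of them (86.8%, 71.9 to 95.6) had S100a8, an abundant neutrophil RNA. Of the 245 cells without Cxcr2, 19 had S100a8 (7.76%). Retnlg, another neutrophil gene, was in 31 of the 38. Xcr1, the receptor of cross-presenting dendritic cells, was in 23 cells, of which 18 had Clec9a (78.3%, against 4.62% of the rest) and none had Cxcr2. Ccr9, known from plasmacytoid dendritic cells, was in 21 cells, of which 14 had Siglech, a marker of those cells (66.7%, against 3.44%). At 2000 UMIs per cell the shares were 90.9% against 8.05% for S100a8, 35.7% against 1.86% for Clec9a and 85.7% against 0.744% for Siglech.

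The monocyte receptors overlapped. Ccr2 was in 165 cells and Cx3cr1 in 162, with 110 cells holding both. Ly6c2, a gene of classical monocytes, was in 103 of the 165 cells with Ccr2 (62.4%) and 13.6% of the rest, and Ace, which is high in patrolling monocytes, in 74 of the 162 with Cx3cr1 (45.7%) and 18.2% of the rest. Median depth was 9677 UMIs with Ccr2 and 6174 without it, and 8796 with Cx3cr1 and 8246 without it. Ccr7 was in 25 Macrophage cells. The migratory dendritic cell gene Fscn1 was in 6 of them, while the T cell genes Lef1 and Cd3e were in 10 and 8. Whether those barcodes held a T cell besides a myeloid cell was not tested. Scrublet, a doublet caller, marked 10 of the 283 Macrophage cells and 17 of the 334 T-cell barcodes, and they were kept.

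T-cell barcodes with Ccr7 and with Cxcr6 overlapped little. Ccr7 had a UMI in 175 of 334 T-cell barcodes, and 164 of these (93.7%, 89.0 to 96.8) had Lef1, a gene of naive T cells, against 28.3% of the rest. Cxcr6 was in 13 of the cells with Ccr7 (7.43%) and in 108 of the 159 without it (67.9%). Ccr2 was in 106 cells, of which 92 had Cxcr6 (86.8%), against 12.7% of the rest. Ccr6 and Ccr4, receptors of helper and regulatory T cells, were found with Cxcr6 in 29 of 33 and 20 of 23 cells, and with Cd3e in 30 and 22 of these cells. Ccr8 was found with Cxcr6 in 10 of 15 cells and with Cd3e in 4 of them (26.7%, against 77.4% of the rest). At 2000 UMIs per cell Cxcr6 was in 4.44% of cells with Ccr7 and 44.7% of cells without it. Median depths with and without Ccr7 were 5079 and 4960 UMIs.

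In NK-cell barcodes Cx3cr1 and Xcl1 also overlapped little. Xcl1 was in 5 of 34 cells with Cx3cr1 (14.7%, 4.95 to 31.1), a receptor of mature NK cells, and in 74 of 138 without it (53.6%). Ccl4 was in 128 of the 143 NK-cell barcodes with Ccl3 (89.5%) and in 75.9% of the rest. In B-cell, Cxcr5 was in 63 of the 165 cells with Ccr7 (38.2%) and in 36% of the rest. The B-cell shares were near even.

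**Figure D2:**
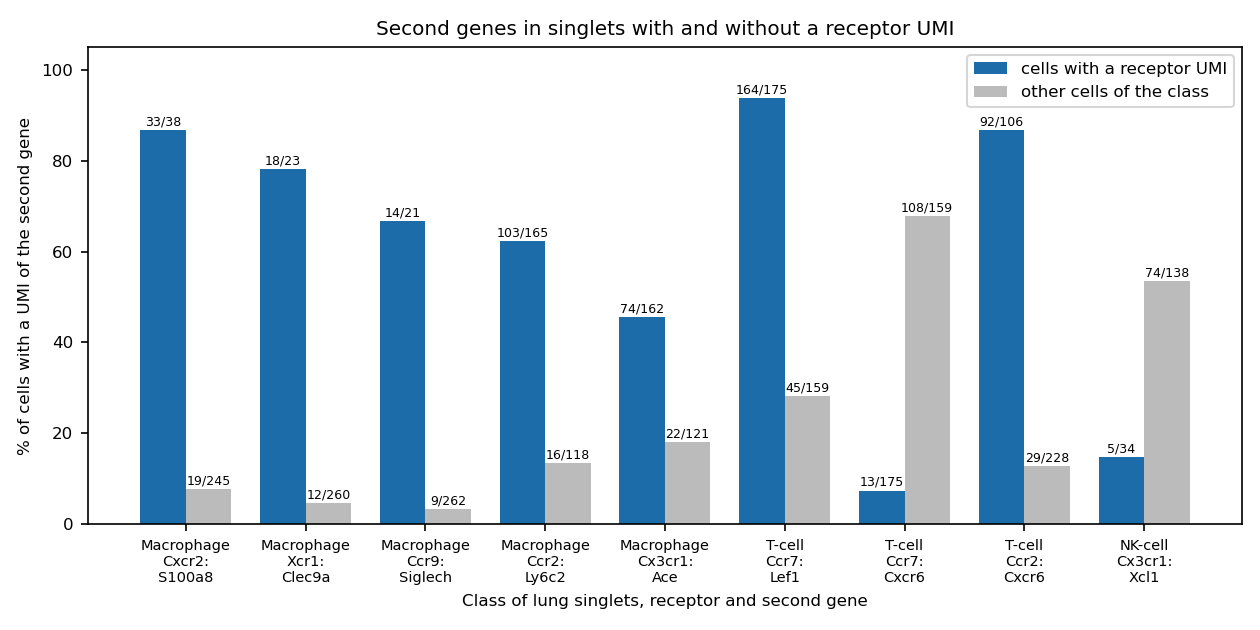
Share of singlets with a UMI of a second gene among cells with (blue) and without (grey) a UMI of the named receptor, within the classes Macrophage, T-cell and NK-cell, with cell numbers above the bars. S100a8 is in 33 of 38 Macrophage cells with Cxcr2 and in 19 of 245 without it, and Cxcr6 is in 13 of 175 T-cell barcodes with Ccr7.

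The comparison of summed levels asked which chemokine and receptor RNA was more abundant in multiplets than in singlets. Differences were called by size alone, at more than 1.5-fold, where 1 of the libraries held 50 UMIs or more of the gene. Of the 48 genes counted, 31 were higher in multiplets (15.9% of the 15098 genes counted in the whole tables) and 6 were lower (13.8%). The median ratio was 2.54, against 0.963 over the whole tables. Ackr2, Ackr4, Ccl12, Ccr4, Cxcl9 and Cxcr1 were counted through their multiplet UMIs alone, so they had to be high there. Of the 42 with at least 50 singlet UMIs, 25 were higher (13% of all genes so filtered) and 6 lower (14.4%), a filter chosen after seeing the data. In such sums, a larger share of a cell type and more RNA per cell cannot be told apart.

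Monocyte-attracting ligands of 1 cluster on chromosome 11 were higher. Ccl12, at chr11:82101845-82103400, went from 0.194 CPM in singlets (11 UMIs) to 7.36 in multiplets (488 UMIs), a ratio of 37.9 (21.0 to 76.5). Ccl8, at chr11:82115185-82116799, was at 1.29 and 10.4 CPM (8.10-fold, 6.36 to 10.5), Ccl7 at 4.71 and 13.9 (2.94-fold) and Ccl2 at 14.6 and 38.8 (2.65-fold). These 4 bind Ccr2 or related receptors. Ccl11, which lies between Ccl7 and Ccl12 at chr11:82057823-82062955, was lower, at 24.3 and 4.39 CPM (0.181-fold, 0.159 to 0.205). Ccl24, an eosinophil attractant, had 235 UMIs in multiplets (3.55 CPM) and was not listed in the singlet table. Cxcl13, the ligand of Cxcr5, was at 2.15 and 26.8 CPM. Its ratio moved from 12.5 to 59.3 without the 10 richest barcodes of each library, and 10 cells had held 91.8% of its singlet UMIs.

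Neutrophil-related genes were higher too. The receptor Cxcr2 was at 2.75 CPM in singlets and 20.7 in multiplets (7.51-fold, 6.36 to 8.91) and its relative Cxcr1 at 0.689 and 3.68 (5.35-fold). Among their ligands Cxcl2 was at 190 and 860 CPM (4.52-fold, 4.43 to 4.61) and Cxcl3 at 2.47 and 7.39 (2.99-fold), whereas Cxcl1 was at 29.6 and 34.0 (1.15-fold) and Cxcl15 at 2383 and 1736 (0.729-fold). With each barcode weighted equally Cxcl15 was at 1.15-fold. Cxcl5 was at 1.46 and 11.6 CPM (7.94-fold), with 86.1% of its multiplet UMIs in 10 barcodes, 9 of which were marked by club cell genes. Ccl20 was at 1.75 and 9.40 CPM (5.38-fold), and 408 of its 623 multiplet UMIs lay in a single barcode.

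Further ligands and receptors were higher. Xcr1 was at 1.61 and 12.4 CPM (7.70-fold), Ccl17 at 10.1 and 69.0 (6.87-fold) and Ccl22 at 7.19 and 31.8 (4.42-fold). Without the 10 richest barcodes of each library Ccl17 was at 49.2-fold and Ccl22 at 33.2-fold, where 10 cells had held 90.7% and 93.1% of their singlet UMIs. Xcr1 moved to 17.0-fold by the same change. Ccr1 was at 11.4 and 56.2 CPM (4.91-fold), Cx3cr1 at 10.4 and 44.9 (4.30-fold), Cxcr4 at 33.8 and 109.8 (3.25-fold) and Ccl6 at 238 and 782 (3.29-fold). The interferon-induced ligands Cxcl9 and Cxcl10, which attract cells with Cxcr3, were at 8.24-fold (0.247 and 2.04 CPM) and 2.45-fold (8.56 and 21.0 CPM).

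Most of the lower genes were highest in a fibroblast class of singlets. Besides Ccl11 the lower genes were Ccl5 at 281 and 118 CPM (0.420-fold), Ccl19 at 9.15 and 3.88 (0.424-fold), Cxcl14 at 372 and 178 (0.477-fold), Ccl27a at 12.3 and 7.08 (0.576-fold) and Ackr3 at 24.0 and 15.6 (0.652-fold). Ccl5 was the only lower ligand led by NK-cell. Of the others led by that class, Ccl3 and Ccl4 were higher and Xcl1 was within the limit at 1.06-fold. The order of Ccl5 turned with depth. NK-cell singlets had a median of 3459 UMIs, below the shallowest multiplet, and against the 4770 singlets at least as deep as that multiplet Ccl5 was at 1.30-fold. Against the same singlets Ccl3 moved from 2.07-fold to 3.48-fold and Ccl4 from 1.76-fold to 3.499-fold. With each barcode weighted equally Ccl3 was at 1.39-fold and Ccl4 at 1.13-fold, within the limit, as were Ackr3 at 0.901-fold, Cxcr3 at 1.46-fold (2.63-fold in the sums) and Ccr4 at 1.115-fold (1.91-fold in the sums).

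**Figure D3:**
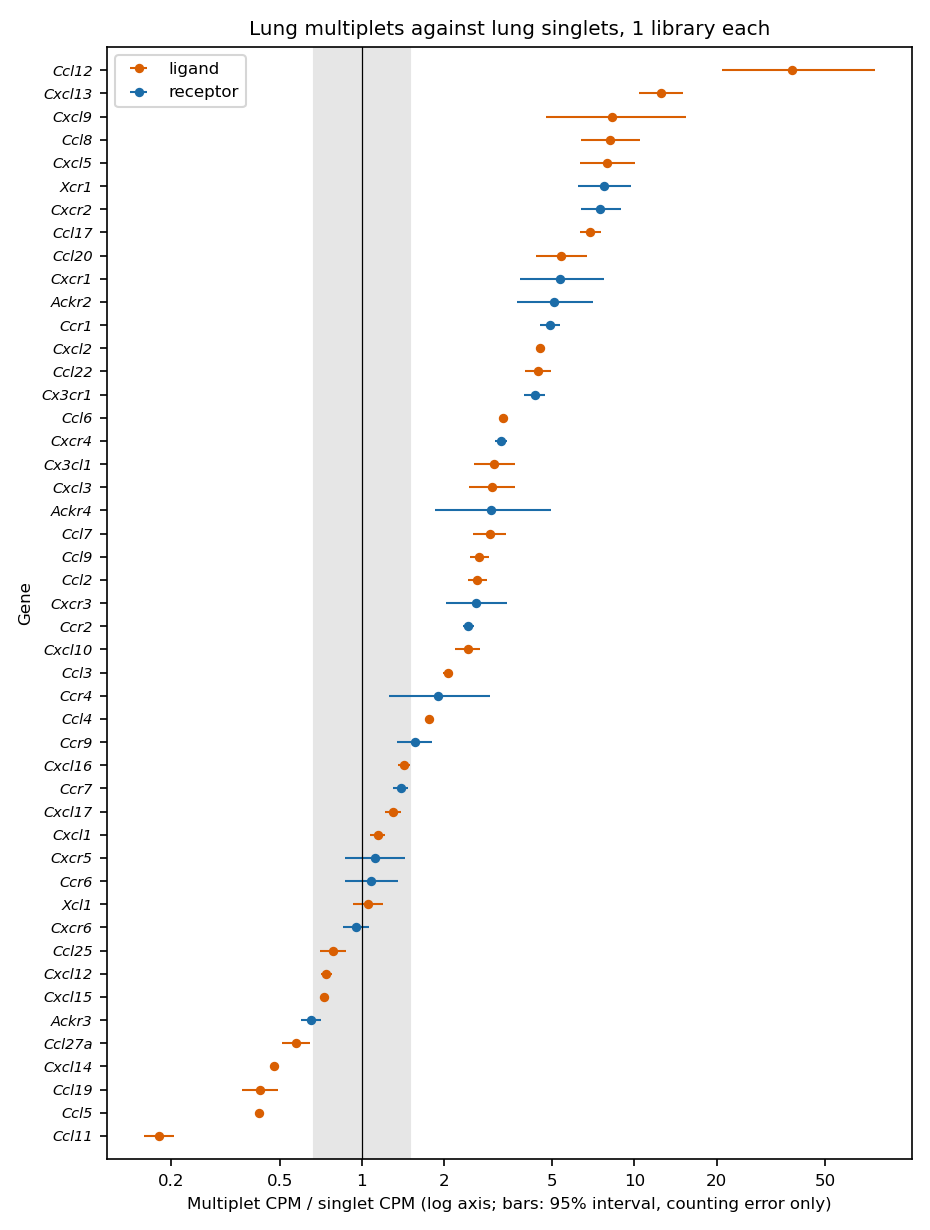
Ratio of multiplet to singlet CPM for the genes counted, on a log axis, with 95% intervals for counting error and the band of 1.5-fold in grey, ligands in orange and receptors in blue. Ccl12 lies farthest right at 37.9-fold and Ccl11 farthest left at 0.181-fold.

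A second comparison asked whether the singlet classes can account for these levels. Each multiplet was fitted as a mixture of the 13 class profiles with 520 class genes, none of them a chemokine or receptor, and the UMIs of each gene were set against the sum the fit predicted. In these weights Macrophage made up 19.0% of multiplet RNA, against 4.63% of singlet UMIs, Alveolar Macrophage 17.9% against 6.02%, Endothelial 6.44% against 1.34% and Fibroblast-1 15.6% against 38.1%. Of 49 genes counted, 16 exceeded the prediction by more than 1.5-fold (3.64% of all genes) and 4 fell below it by as much (2.84%). Ccl8, Ccl12, Ccr4 and Cxcl9 were counted through their observed UMIs alone and Ccr10 through its predicted UMIs alone, so their side was fixed in part by the filter. Of 44 genes with at least 50 UMIs both observed and predicted, a filter chosen after seeing the data, 12 were above (2.64% of all genes so filtered) and 3 below (1.91%). In held-out singlets fitted in the same way 0 of 42 were above (0% of all genes) and 0 below (0.111%). These singlets came from the same library and classes as the reference, so few genes could pass the limit. They cannot show how well the fit describes multiplets.

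Several genes with large ratios stayed within 1.5-fold of the prediction. Ccl6 was observed at 51832 UMIs and predicted at 48848 (1.06 times), Cx3cr1 at 1.27 times, Cxcr4 at 1.27 times and Ccl22 at 1.10 times (2105 observed). Cxcl14, with 11776 UMIs observed and 12055 predicted, stood at 0.977 times, beside a ratio to singlets of 0.477. Just inside the limit stood Cxcl2 at 1.46 times, Cx3cl1 at 1.48, Cxcl3 at 1.49 and Ccr1, with 3722 UMIs observed and 2482 predicted. Genes just past it were Ccl17 (1.71 times), Ccr4 (1.72) and Ccl2 (1.75).

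Far above the prediction stood Cxcl13 with 1779 UMIs against 76.0 (23.4 times, 22.3 to 24.5), Ccl8 with 692 against 41.3 (16.8 times) and Ccl12 with 488 against 47.1 (10.4 times). The interval covers counting error of the observed UMIs alone and takes the prediction as fixed. For Cxcl13 that prediction rests on 122 singlet UMIs, of which 10 cells held 91.8%, so its true uncertainty is wider. Cxcl5 followed at 5.36 times, Ccl7 at 4.19 and Cxcl9 at 2.92. Cxcr2 stood at 2.09 times, Cxcl10 at 2.04, Ackr2 at 2.01, Xcr1 at 2.00, Ccl20 at 1.99, Cxcr1 at 1.83 and Cxcr3 at 1.79. Below the prediction were Ccr10 with 22 UMIs against 51.2 (0.430 times), Ccl11 with 291 against 658 (0.442), Ccr9 with 521 against 1087 (0.479) and Ccl5 (0.636).

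**Figure D4:**
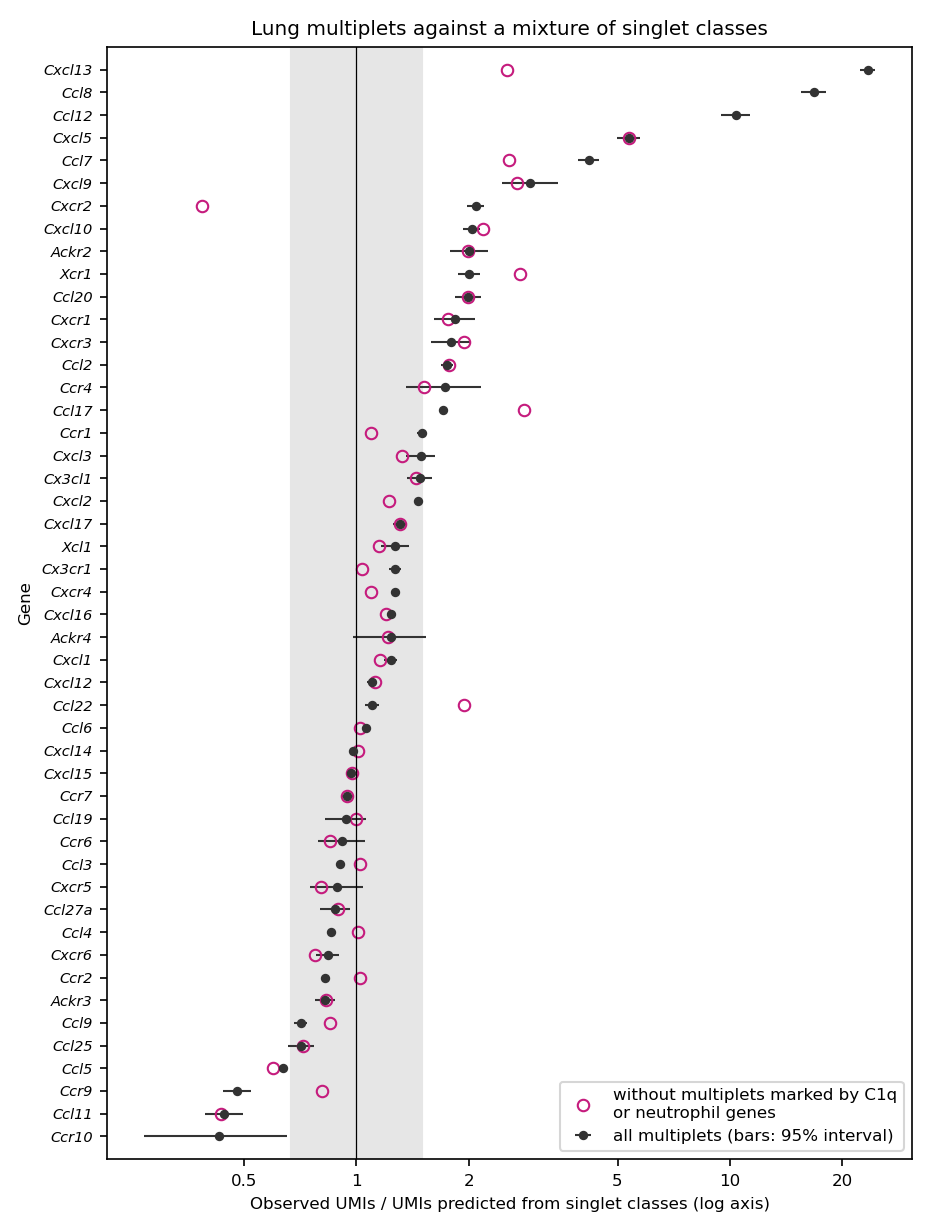
UMIs observed in multiplets over UMIs predicted from the singlet classes for the genes counted, on a log axis with the band of 1.5-fold in grey. Filled points are all multiplets, with 95% intervals for counting error of the observed UMIs alone. Open circles leave out multiplets marked by C1q or neutrophil genes: Cxcl13 moves from 23.4 to 2.53 times and Cxcr2 from 2.09 to 0.386 times.

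Multiplets marked by genes of complement C1q, which are known from interstitial macrophages, held most UMIs of the 3 genes farthest above the prediction. A multiplet was marked when C1qa, C1qb and C1qc together had at least 5 of 2000 UMIs, a set chosen after seeing the data. It took in 183 multiplets (3.87%, 3.34 to 4.46), which held 4.92% of multiplet UMIs, and 14 singlets (0.230%). Median depth was 14278 UMIs in marked multiplets and 11866 in the rest. In the marked set Ccl8 was at 202 CPM, against 0.508 in the rest, and the set held 95.4% of Ccl8 UMIs. It held 91.9% of those of Ccl24 (66.3 against 0.301 CPM), 90.2% of Cxcl13 (492 against 2.76 CPM) and 89.3% of Ccl12 (134 against 0.825 CPM). Of 49 genes with at least 50 multiplet UMIs, 28 were over 1.5-fold higher in the marked set, against 14% of all genes, and 13 were lower, against 32.9%. An interstitial macrophage list with Apoe, which the C1q genes replaced, marked 1282 multiplets and 2656 singlets. In its set 19 of the 49 were higher (16.3% of all genes) and 16 lower (20.6%).

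Other genes were shared with cells outside the set. Ccl7 was at 147 CPM in the set and 6.998 outside it, with 52.0% of its UMIs in the set, and Ccl2 at 230 and 28.9 CPM with 29.2% inside. The receptor Cx3cr1 was higher in the set as well (311 and 31.1 CPM). Lower there were Cxcl12 (14.4 and 60.9 CPM), Ackr3 (1.84 and 16.3) and Cxcl15 (56.7 and 1823). At 2000 UMIs per multiplet, Cxcl13 had a UMI in 20.2% of marked multiplets and 0.264% of the rest, and Ccl8 in 14.2% and 0%.

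These ligands shared multiplets in part. Without thinning, Cxcl13 was in 92 multiplets, Ccl8 in 72, Ccl12 in 87 and Ccl24 in 57. Ccl24 was found in 34 of the 72 with Ccl8 (47.2%, against 0.494% of the rest). Ccl8 was found in 27 of the 92 with Cxcl13 (29.3%, against 0.97% of the rest). Pf4, a chemokine of platelets and some macrophages whose symbol lies outside the naming rule, was in 53 of the 57 multiplets with Ccl24, 62 of 72 with Ccl8, 69 of 87 with Ccl12 and 58 of 92 with Cxcl13. In multiplets without the ligand, Pf4 was in 7.69% (Ccl12) to 7.98% (Ccl24). Ccl11 was in 1 of the 92 multiplets with Cxcl13 (1.09%) and in 1.36% of the rest, so these shares were near even. Of the 10 multiplets richest in Cxcl13, 9 were marked by C1q genes and 0 by fibroblast genes, and of the 10 richest in Ccl11, 1 and 9.

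Neutrophil genes marked a second set. With a list of 7 neutrophil genes, from which Lcn2 was left out after its level in Pneumocyte Type-II cells was seen, 345 multiplets were marked (7.30%, 6.57 to 8.07), against 40 singlets (0.657%). They held 8.80% of all multiplet UMIs. Of the Cxcr2 UMIs they held 89.0%, at 209 CPM against 2.50 in the rest, and of those of Ccr1 43.4%, at 277 against 34.9. Cxcr4 was at 479 and 74.2 CPM, Cxcl2 at 2603 and 692, and Ccl6 at 1315 and 731. Cxcl1 did not differ beyond counting error, at 35.3 and 33.8 CPM (1.04-fold, 0.901 to 1.21). Cxcr1, a receptor known from neutrophils, was at 5.83 and 3.47 CPM (1.68-fold, 1.13 to 2.42), with 13.9% of its UMIs in the set. Alveolar Macrophage was its highest singlet class, at 9.38 CPM. In the neutrophil set 28 of 49 genes were over 1.5-fold higher, against 15.1% of all genes, and 13 were lower, against 38.5%. With Lcn2 in the list 404 multiplets were marked, and 22 genes were higher (12.4%) and 13 lower (35.5%). Of the 345, 50 were also marked by C1q genes. Without both sets, leaving 4251 multiplets, 14 of 46 genes stood above the prediction (3.09% of all genes) and 3 below (2.73%). Ccr4 (57 UMIs against 37.6 predicted) and Cxcl9 (88 against 32.6) were counted here through observed UMIs alone. Their side was fixed in part by the filter, and the sets left out were chosen after seeing the data. In the 4251 multiplets Ccl22 stood at 1.95 times (1861 UMIs observed), Ccl17 at 2.81, Ccl7 at 2.56 and Ccr9 at 0.809.

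**Figure D5:**
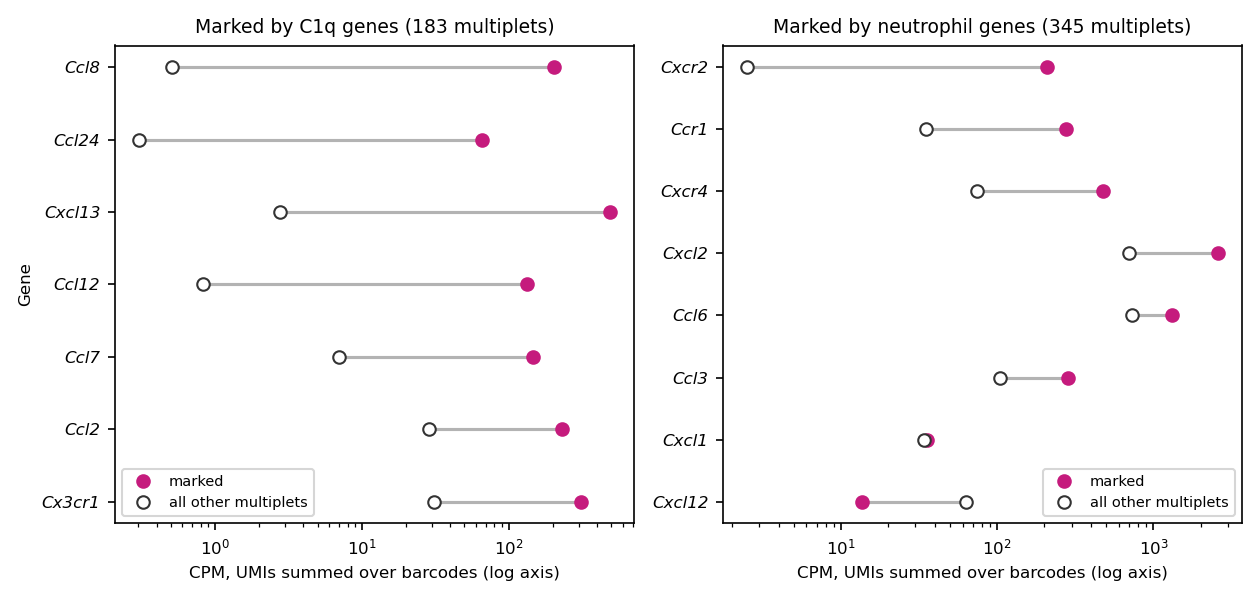
CPM in lung multiplets marked by C1q genes (left) or neutrophil genes (right) and in all other multiplets, on log axes, for selected ligands and receptors. Ccl8 is at 202 CPM in the C1q set and 0.508 outside it, Cxcr2 at 209 CPM in the neutrophil set and 2.50 outside it, and Cxcl1 is near even.

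Other lists marked the multiplets with further genes. Endothelial genes marked 480 multiplets with 7.23% of all multiplet UMIs. This set held 88.5% of the Ackr2 UMIs (51.3 CPM, against 0.520 in the rest), 56.8% of those of Ackr3 and 38.6% of those of Cxcl12. Club cell genes marked 761 (18.1% of all multiplet UMIs), with 94.3% of the Cxcl5 UMIs and 86.6% of those of Cxcl17. The club cell list also marked 408 singlets, beside 61 in the class Clara cell, and stood at 10810 CPM in Ciliated cell, the class that led Cxcl17. At 3 UMIs it marked 1888 multiplets and at 10 UMIs 305. Genes of alveolar macrophages marked 922 (23.3% of all multiplet UMIs), with 82.6% of the Ccl6 UMIs and 69.0% of those of Cxcl2. Dendritic genes marked 34 multiplets (0.811% of all multiplet UMIs), in which Ccl17 was at 1206 CPM and Ccl22 at 951. These multiplets held 14.2% of the Ccl17 UMIs and 24.3% of the Ccl22 UMIs. Genes of B cells marked 75 multiplets. Cxcl13 was at 358 CPM there, against 22.5 in the rest, and Cxcr5 at 62.8 against 1.44. Of these 75, 18 were also marked by C1q genes.

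Ligand and receptor RNA in 1 barcode was compared at 2000 UMIs per barcode for 23 known pairs. No barcode was too shallow for this. Pairs found in at least 5 barcodes of a library numbered 10, and 7 of these were at a share over 1.5 times higher in multiplets. No share over other gene pairs was computed, so this count has no background. A pair's share also depends on how often each gene alone was found. Cxcl2 with Cxcr2 was found in 115 of 4729 multiplets (2.43%, 2.01 to 2.91) and 19 of 6084 singlets (0.312%, 0.188 to 0.487), where independent occurrence of both RNAs would give 0.782% and 0.0239%. Ccl6 with Ccr1 was at 7.04% and 1.25%, against products of 2.48% and 0.107%, Ccl3 with Ccr1 at 1.99% and 0.345%, Ccl9 with Ccr1 at 1.06% and 0.181% and Ccl2 with Ccr2 at 1.21% and 0.263%. In Alveolar Macrophage singlets Ccl6 and Ccr1 were already in the same cell in 149 of 227 cells, and in Macrophage singlets 33 of the 38 cells with Cxcr2 had Cxcl2. Whether ligand and receptor came from different cells of a cluster was not tested.

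Cxcl12 and Cxcr4, the pair of stroma and leukocytes, were together in 34 multiplets (0.719%) and 15 singlets (0.247%), below the 1.36% and 0.766% that independence would give. Cxcl15 with Cxcr2, also higher in multiplets, was in 7 multiplets (0.148%) and 3 singlets (0.0493%). Its products were larger, at 0.689% and 0.116%. Cxcl12 with Ackr3 was at 0.698% and 0.805%, above the product in both libraries (0.246% and 0.294%). Cxcl13 with Cxcr5, Ccl19 with Ccr7 and Xcl1 with Xcr1 were found in 0 barcodes of either library at 2000 UMIs, which allows shares of up to 0.0634% in multiplets and 0.0493% in singlets at that depth. Without thinning they were found in 11, 6 and 13 multiplets and in 0, 5 and 1 singlets.

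Other genes of chemokine signalling, presentation and breakdown were taken from a list of 36, of which 33 were in both tables. Of these, 16 were over 1.5-fold higher in multiplets (15.9% of all genes), 2 were lower (13.8%) and 15 lay within, with a median ratio of 1.46. Pik3cg, a kinase activated by these receptors, was at 5.56 and 22.5 CPM (4.05-fold), S1pr1, the receptor for exit to blood and lymph, at 18.6 and 54.2 (2.92-fold), and Rgs1, which dampens G protein signals, at 57.3 and 159 (2.78-fold). Among singlet classes S1pr1 was highest in Endothelial (418 CPM), followed by T-cell (226). Ccrl2, a receptor that presents chemerin, was at 41.8 and 122 CPM (2.92-fold), while Cmklr1, the signalling receptor of chemerin, was lower at 77.7 and 30.5 (0.393-fold) and was led by Fibroblast-1. Hspg2, a matrix proteoglycan, was the other lower gene (0.509-fold).

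Annotation limits some of these values. Of the 55 genes, 16 overlap a gene on the opposite strand in GENCODE M21. Among them are Ccl2, Ccl6, Ccl25, Ccl27a, Cxcl10, Cxcl16, Cxcl17, Cxcr5 and Cxcr6. The labels do not state whether counting used strand. Ackr1, Ccr9 and Cx3cr1 overlap genes on the same strand. Ccl19 has a further annotated copy on an unplaced sequence, and Ccl27a has near-identical copies, so their UMIs may be split.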

How the data were processed

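Droplet libraries (Chromium Single Cell 3′ v3, per the labels' protocols) were processed with Cell Ranger 4.0.0 on mm10, per the submitters' processing notes. The authors deposited UMI counts that were not normalized, for each barcode and gene, and named a class for each singlet. The labels do not state how classes were made or multiplets separated. The lung tables held 6084 singlets (56639425 UMIs) and 4729 multiplets (66277622 UMIs), and 19042 genes were in both. With 1 library per group no test was run. Counts were summed and scaled to a total of 1000000 (CPM) without a pseudocount. Shares carry Clopper-Pearson and sums exact Poisson intervals at 95%, and a count of 0 allows 3 counts.

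Genes were named at 10 CPM in a lung library or 50 CPM in a class of at least 50 singlets, and others by counts or where a gene set held them. Barcodes were thinned to 2000 UMIs for shares. Markers marked a multiplet at 5 UMIs. Pairs were counted in at least 5 barcodes of a library. Mixtures used the 40 genes of each class that stood farthest above the next class, with 10 CPM added to both levels for this ranking, and 300 expectation-maximization iterations. Scrublet in scanpy 1.11.5 marked 126 singlets (2.07%), which were kept. Alternatives used edgeR 4.0.16 (TMM) and DESeq2 1.42.0 size factors on the counts. Other alternatives changed the filter, weights, depth, reference classes and limits. Calculations were tested on simulated data. The genes and lists were chosen with earlier results of these data known. 1 gene that enters the counts is not reported here. Promoters matched 42 of 55 genes by symbol.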

Additional observations from a re-analysis of the deposited data

How the results depend on the processing

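No paired analysis was possible because each group had 1 library, and no replicate could be left out. The counts of genes higher and lower in multiplets, of genes with 1 leading class and of genes below the mixture stayed within 1.5 times their value under each alternative run: other scalings, filters, weights, deep singlets, references and limits. Scaling by DESeq2 size factors moved the median log2 ratio of all genes from -0.05 to about 0. With a limit of 2-fold 10 of 49 genes stood above the mixture, in place of 16. No share over all genes is given at that limit, so this count has no background. Ccl8, Ccl12 and Cxcl9, counted through their observed UMIs alone, are among the 10. Pairs at a higher share in multiplets numbered 11 of 13 counted at 5000 UMIs and 18 of 21 without thinning, in place of 7 of 10. None of these pair counts has a background share over other gene pairs. The ratio of Ccl5 turned to 1.30 against deep singlets. Observed over predicted UMIs of Cxcr2 turned to 0.386 without multiplets marked by C1q or neutrophil genes, a choice made after seeing the data that removes most Cxcr2 UMIs. The cause was not tested for any of these changes. Over the alternatives run, 240 of 326 ratios of single genes stayed within their counting interval, 85 moved in size and 1 called ratio turned. Ratios within the limit that crossed 1 were those of Ccr6 (0.698), Ccr7 (0.682), Cxcl15, Cxcr5 (0.522) and Xcl1 (0.489) with equal weights, of Cxcr6 against deep singlets (1.42) and of Xcl1 without the 10 richest barcodes (0.729).

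Genes with few UMIs, few cells or 1 dominant barcode are the least certain: Ccl12, Ccl20, Cxcl3, Cxcl5 and Cxcl9 rest on 11 to 140 singlet UMIs each. The classes Mesothelial cell (10 singlets) and Pneumocyte Type-I (6) are thin references for the mixture. Intervals cover counting error only, not differences between animals, dissociations or libraries.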

Other observations

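In the small intestinal epithelium of the same strain, also with 1 singlet and 1 multiplet library, 9 of the chemokine ligands could be compared with the limits used for lung. Ccl25, which attracts cells with Ccr9 to the gut, was at 696 CPM in singlets and 666 in multiplets (0.958-fold, 0.944 to 0.973). Ccl28, a ligand of mucosal epithelium, was at 21.5 and 22.4 CPM, and Ccl20 at 4.67 and 4.46 CPM (0.956-fold), against 5.38-fold in lung. Ccl6 was at 253 and 390 CPM (1.54-fold), and Ccl9 at 92.8 and 71.3 CPM (0.769-fold), against 2.70-fold in lung. The difference between tissues was not tested.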
